A study of Mus musculus with 6 samples.

Results

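Glycolysis splits glucose into pyruvate in the cytosol, and 10 genes for its enzymes were described here, from the hexokinases Hk1 and Hk2 at the entry of glucose to Ldha, which turns pyruvate into lactate. The set was chosen by gene symbol: Hk1, Hk2, Gpi1, Pfkl, Pfkp, Aldoa, Pgk1, Pgam1, Pkm and Ldha. A gene counted as measured where a probeset (a group of array probes read as 1 value) was annotated with that symbol alone, and its brightest probeset by the mean of all 6 arrays stood for it. Of the 10 genes, 8 had such a probeset and 7 passed the filter on dim signal, among 14020 genes tested in all. Ldha was measured but lay at or above its array's median on 1 of 6 arrays and was not tested. The Aldoa probeset was also annotated with a second gene, and no probeset was annotated with Gpi1, so both are not analysed here.

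The mouse embryo takes up pyruvate and lactate early on and takes up more glucose as it forms the blastocyst cavity and prepares to implant. Hexokinase traps glucose in the cell, phosphofructokinase commits it to glycolysis, and phosphoglycerate kinase and pyruvate kinase make the ATP of the later steps. In diapause a blastocyst stops growing before it implants and lowers its metabolism while it stays viable.

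The 6 arrays (GeneChip Mouse Gene 2.0 ST) read RNA of blastocysts from let7g-transgenic mice, 2 arrays for each of 3 groups and 10 blastocysts an array. D4-act-7g held blastocysts activated on day 4, Dor-7g held blastocysts dormant in the uterus on day 7, and DOX-7g held blastocysts on day 7 that were made dormant in culture by inducing let-7 with DOX. All 3 groups carried the transgene, and the labels do not name its promoter. Set against D4-act-7g, the DOX-7g group combines let-7 induction with a later day, culture and DOX. The Dor-7g group combines dormancy with a later day. Set against Dor-7g, the DOX-7g group combines let-7 induction with DOX and with culture in place of the uterus. The effects within each combination cannot be told apart. The labels do not say whether arrays of 1 group come from different animals, so p-values measure only the spread between these arrays, which may be technical. Each array read whole blastocysts, so fewer cells of a type and less RNA per cell cannot be told apart. With 2 arrays a group, every value has limited precision.

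Dor-7g replicate 1 stood apart: its Pearson correlations with the other 5 arrays, taken over probesets, which are not independent replicates, were 0.899 to 0.919, and its median signal was 4.87 log2 units against 4.62 to 4.67 on the other 5. The blastocyst lineages were present by their markers. Of 9 trophectoderm genes 8 or 9, of 9 inner cell mass and epiblast genes 6 or 7, and of 8 primitive endoderm genes 6 to 8 reached the array's median on each array. Of 7 measured blood markers 2 or 3 did so on D4-act-7g arrays, 4 on Dor-7g arrays and 6 on DOX-7g arrays. The summed linear signal of the blood markers was 203 to 204 on D4-act-7g arrays, 307 to 367 on Dor-7g arrays and 2350 to 3130 on DOX-7g arrays, while the pan-leukocyte gene Ptprc lay between 3.57 and 3.82 log2 units on all 6 arrays, below each array's median. The brightest blood markers on DOX-7g arrays, and so most of that sum, were S100a8 (10.91 and 10.12) and S100a9 (9.55 and 9.55). The summed signal of 10 uterine epithelium markers was 338 to 365 on D4-act-7g arrays, 355 to 427 on Dor-7g arrays and 579 to 1030 on DOX-7g arrays. Of these, Spink1 stood at 5.87 and 9.24 log2 units on DOX-7g arrays against 3.50 to 4.34 elsewhere, and Prap1 at 7.79 and 6.78 against 5.00 to 6.58. Of the 9 tested epithelium genes 4 were above and 5 below Dor-7g in DOX-7g, with a median difference of -0.20. The summed signal of 7 uterine stroma markers was 267 to 331 on 5 arrays and 914 on Dor-7g replicate 2, where the stromal proteoglycan gene Dcn stood at 9.29 against 3.67 to 4.22 elsewhere. Whether blood or uterine cells were present, and their part in the results below, was not tested.

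The microRNA induced in DOX-7g belongs to the let-7 family. The endogenous mature sequence of let-7g, taken from RefSeq (GRCm38.p6, chr9:106178846-106178867, plus strand), is shown with its seed, bases 2 to 8, in capitals, because the seed is the part that pairs with target transcripts.
mmu-let-7g-5p: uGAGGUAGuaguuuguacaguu

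By their brightest probesets, the 3 members with a single start site in RefSeq that differed most between the groups were Pgk1, Pgam1 and Pfkp. The second Pgam1 probeset differed less, by -0.30 between Dor-7g and D4-act-7g. Promoter sequences are shown for these 3 members. Each covers the 250 bases before the start, 5′ to 3′ on the gene's strand, in GRCm38.p6, with every ACGTG on either strand in capitals. ACGTG is 1 form of the core of the hypoxia response element bound by HIF factors and lies within the E-box CACGTG, which Myc and related factors bind. Other forms of the core, such as GCGTG, were not counted. Pgk1 lies at chrX:106186850-106187099 on the plus strand, Pgam1 at chr19:41911621-41911870 on the plus strand and Pfkp at chr13:6648772-6649021 on the minus strand.
Pgk1: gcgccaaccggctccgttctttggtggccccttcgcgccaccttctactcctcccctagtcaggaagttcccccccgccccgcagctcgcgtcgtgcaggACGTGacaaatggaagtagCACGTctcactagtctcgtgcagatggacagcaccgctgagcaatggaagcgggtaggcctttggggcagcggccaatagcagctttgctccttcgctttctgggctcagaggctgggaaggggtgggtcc
Pgam1: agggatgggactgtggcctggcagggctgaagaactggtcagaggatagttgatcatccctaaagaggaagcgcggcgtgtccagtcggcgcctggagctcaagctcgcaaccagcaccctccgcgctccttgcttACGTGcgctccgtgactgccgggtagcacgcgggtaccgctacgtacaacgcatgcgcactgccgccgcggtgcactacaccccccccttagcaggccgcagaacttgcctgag
Pfkp: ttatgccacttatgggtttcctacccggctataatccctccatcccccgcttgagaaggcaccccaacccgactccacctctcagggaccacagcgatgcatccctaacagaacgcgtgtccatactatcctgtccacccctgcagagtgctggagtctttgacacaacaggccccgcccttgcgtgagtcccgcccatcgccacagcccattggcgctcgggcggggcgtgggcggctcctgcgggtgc
Pgk1 held 2 matches to ACGTG, Pgam1 held 1 and Pfkp held 0, and none of the 3 windows held CACGTG. Of 32851 promoter windows of this length, 16.6% held ACGTG and 6.02% held CACGTG on either strand. A match is a run of letters and no proof of binding, and its absence covers these windows and this form of the core only.

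None of the 7 tested members passed the threshold in any of the 3 comparisons (limma, Benjamini-Hochberg adjusted p of 0.05 over all 14020 genes). The share of all genes that passed was 0.984% between Dor-7g and D4-act-7g, 0.956% between DOX-7g and D4-act-7g and 1.16% between DOX-7g and Dor-7g. At an unadjusted p under 0.05, limma counted 3, 1 and 2 of the 7 members in these comparisons, against 14.3%, 11.0% and 11.6% of all genes. The smallest change that passed over all genes was 1.14, 1.27 and 1.16 log2 units, so a change of the size of most members here was not called for any gene.

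**Figure D1:**
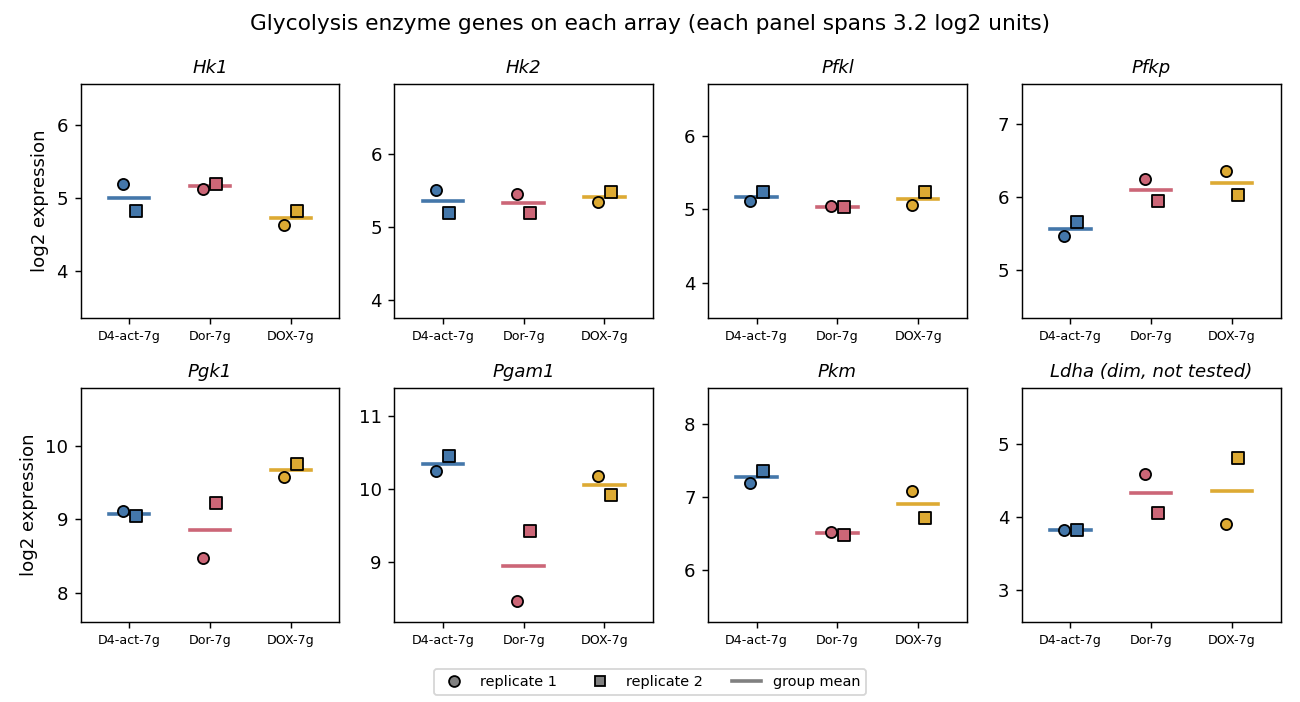
Log2 expression (vertical axis) of the 8 measured members in the 3 groups (horizontal axis), with 1 point per array and a bar at the group mean; every panel spans the same range of log2 units. Hk1, Hk2 and Pfkl stayed within 0.56 log2 units over the 6 arrays, while Pgam1 spread over 1.98, with its lowest value on Dor-7g replicate 1.

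The entry enzymes varied little. Hk1, the hexokinase of most cells, stood at 5.19 and 4.82 log2 units on D4-act-7g arrays, 5.13 and 5.20 on Dor-7g arrays and 4.64 and 4.83 on DOX-7g arrays. Its Dor-7g arrays lay above both DOX-7g arrays, and D4-act-7g overlapped both groups. The difference of DOX-7g from Dor-7g was -0.43 ± 0.20 (SE, n = 2 arrays each; limma, adjusted p = 0.482). A brighter probeset, annotated with both Hk1 and Hk1os and so not used, stood at 6.27 and 5.93 on Dor-7g arrays. On DOX-7g arrays it stood at 6.01 and 6.13, so the dormant groups overlapped there.

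Hk2, the inducible hexokinase, stood at 5.51 and 5.20 on D4-act-7g arrays, 5.46 and 5.19 on Dor-7g arrays and 5.34 and 5.48 on DOX-7g arrays. All 3 groups overlapped, and the 2 arrays of D4-act-7g or of Dor-7g lay further apart than any 2 group means. The change was -0.03 in Dor-7g (95% interval -0.53 to 0.48) and 0.06 in DOX-7g (-0.45 to 0.56), both against D4-act-7g.

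The phosphofructokinase genes code for alternative subunits of the enzyme that commits sugar to glycolysis, and the 2 measured differed in their pattern. Pfkl, the liver-type subunit, stood at 5.11 and 5.24 on D4-act-7g arrays, 5.05 and 5.03 on Dor-7g arrays and 5.06 and 5.24 on DOX-7g arrays, a range of 0.21 over all 6 arrays. Both Dor-7g arrays were just below all others. Its change was -0.13 (95% interval -0.56 to 0.30) in Dor-7g and -0.02 (-0.45 to 0.40) in DOX-7g.

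Pfkp, the platelet-type subunit, stood at 5.46 and 5.66 on D4-act-7g arrays, 6.25 and 5.94 on Dor-7g arrays and 6.35 and 6.03 on DOX-7g arrays. All 4 dormant arrays lay above both D4-act-7g arrays, and the dormant groups overlapped each other. Against D4-act-7g the difference was 0.54 ± 0.22 in Dor-7g (1.45-fold; limma, adjusted p = 0.349) and 0.63 ± 0.22 in DOX-7g (1.55-fold; limma, adjusted p = 0.364). Both comparisons share the D4-act-7g arrays. Between DOX-7g and Dor-7g the difference was 0.10, with a 95% interval of -0.44 to 0.63. Pfkp was the member with the widest difference between DOX-7g and D4-act-7g.

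Pgk1, phosphoglycerate kinase, makes the first ATP of the pathway. It stood at 9.11 and 9.05 on D4-act-7g arrays, 8.47 and 9.23 on Dor-7g arrays and 9.58 and 9.76 on DOX-7g arrays. Both DOX-7g arrays were the highest of the 6, and the Dor-7g arrays lay on either side of D4-act-7g. The difference of DOX-7g was 0.58 ± 0.28 against D4-act-7g (1.50-fold; limma, adjusted p = 0.551) and 0.82 ± 0.28 against Dor-7g (1.77-fold; limma, adjusted p = 0.364).

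Pgam1, a phosphoglycerate mutase that moves the phosphate group of the product of Pgk1, had the widest difference of the members in Dor-7g. It stood at 10.24 and 10.45 on D4-act-7g arrays, 8.47 and 9.43 on Dor-7g arrays and 10.18 and 9.92 on DOX-7g arrays. Both Dor-7g arrays lay below the other 4, but they were 0.95 apart, the widest gap of any member in any group. Pgam1 in Dor-7g was -1.40 ± 0.34 against D4-act-7g (0.380-fold; limma, adjusted p = 0.157), and by p it ranked 582 of 14020 genes. DOX-7g was 1.10 ± 0.34 above Dor-7g (2.15-fold; limma, adjusted p = 0.316) and -0.29 ± 0.34 from D4-act-7g (adjusted p = 0.885).

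A second probeset annotated with Pgam1 alone, much dimmer, stood at 5.41 and 5.79 on D4-act-7g arrays, 5.42 and 5.18 on Dor-7g arrays and 5.58 and 5.57 on DOX-7g arrays. Its Dor-7g arrays overlapped D4-act-7g. With the mean of both probesets, Pgam1 in Dor-7g was at -0.85 ± 0.21 (limma, adjusted p = 0.165) against D4-act-7g. RefSeq lists pseudogene copies of Pgam1 and of Pgk1, so whether their probesets read the gene, the copies or both is uncertain.

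Pkm, pyruvate kinase, makes the last ATP of the pathway, and its 2 Dor-7g arrays agreed closely. It stood at 7.19 and 7.35 on D4-act-7g arrays, 6.52 and 6.48 on Dor-7g arrays and 7.08 and 6.71 on DOX-7g arrays. The groups did not overlap and ran from D4-act-7g through DOX-7g to Dor-7g. Dor-7g differed from D4-act-7g by -0.77 ± 0.20 (0.586-fold; limma, adjusted p = 0.176; 95% interval -1.26 to -0.28) and DOX-7g by -0.37 ± 0.20 (limma, adjusted p = 0.614). DOX-7g and Dor-7g were 0.40 apart, with a 95% interval of -0.09 to 0.89. The array values do not tell the M1 and M2 splice forms apart.

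Ldha, lactate dehydrogenase A, stood at 3.82 and 3.83 on D4-act-7g arrays, 4.59 and 4.06 on Dor-7g arrays and 3.91 and 4.81 on DOX-7g arrays. All but DOX-7g replicate 2 were below their array's median, so these dim values set no firm level. With no filter on dim probesets, its change was 0.50 ± 0.34 in Dor-7g (limma, adjusted p = 0.599 over 22180 genes) and 0.53 ± 0.34 in DOX-7g (adjusted p = 0.828). Ldha also has pseudogene copies.

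**Figure D2:**
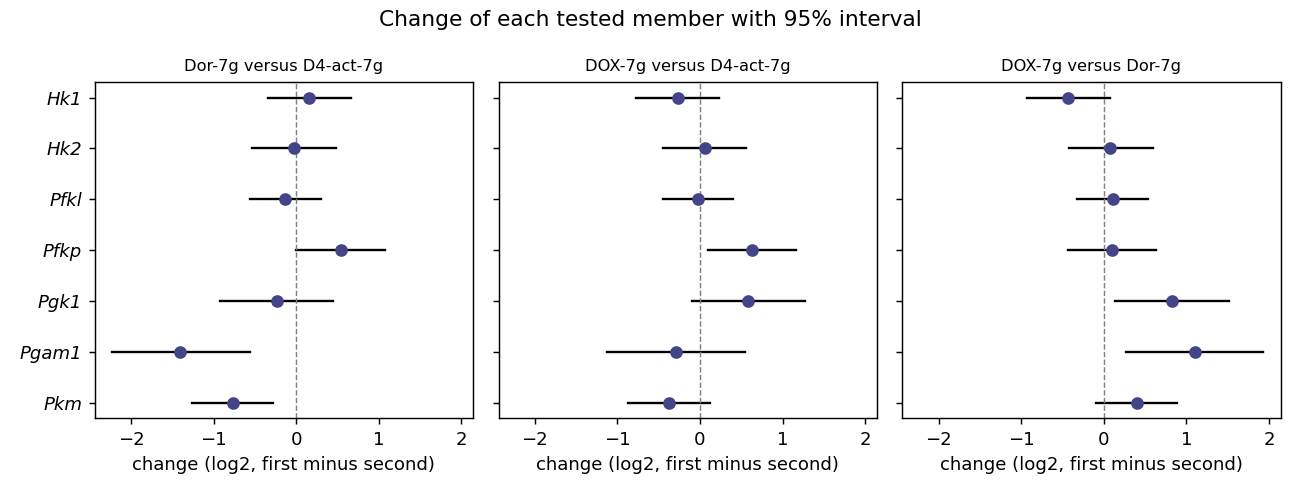
Change of each tested member on the log2 scale (horizontal axis, first group minus second) with limma's 95% interval, not adjusted for the number of genes, in the 3 comparisons. Between Dor-7g and D4-act-7g the intervals of Pgam1 and Pkm lie below 0 and that of Pfkp starts just above 0 (limma, unadjusted p = 0.0493), that of Pfkp lies above 0 between DOX-7g and D4-act-7g, and those of Pgk1 and Pgam1 lie above 0 between DOX-7g and Dor-7g; no adjusted p was under 0.05.

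The members' median absolute change was 0.23 between Dor-7g and D4-act-7g, 0.29 between DOX-7g and D4-act-7g and 0.40 between DOX-7g and Dor-7g, against 0.26, 0.20 and 0.25 over all genes tested. Their median signed change was -0.13, -0.02 and 0.11, against 0.06, -0.05 and -0.11. With 1 array left out in turn, these medians ranged from -0.20 to -0.12, from -0.11 to 0.07 and from 0.10 to 0.26. Between DOX-7g and D4-act-7g the sign turned without DOX-7g replicate 1 (0.07), while it was -0.11 without DOX-7g replicate 2, and either D4-act-7g array left out gave -0.09 (replicate 1) or -0.10 (replicate 2). Between DOX-7g and Dor-7g it was 0.25 without Dor-7g replicate 1, 0.20 without DOX-7g replicate 1 and 0.26 without DOX-7g replicate 2, and between Dor-7g and D4-act-7g it was -0.20 without D4-act-7g replicate 1. Of the 7 members, 2, 3 and 6 had changes above 0, where 56.7%, 42.0% and 37.1% of all genes did. The arrays of the groups did not overlap for 4, 4 and 5 of the 7 members, and did not for 45.8%, 49.7% and 41.7% of all genes.

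Which Dor-7g array was kept decided the values of Pgam1 and Pgk1. Without Dor-7g replicate 2, Pgam1 in Dor-7g was -1.87 ± 0.21 against D4-act-7g (limma, adjusted p = 0.0124), and DOX-7g was above Dor-7g by 1.58 ± 0.21 for Pgam1 (adjusted p = 0.0209) and 1.20 ± 0.18 for Pgk1 (adjusted p = 0.0293). In that fit Dor-7g rests on replicate 1 alone, the array that stands apart, which is assumed to vary like the other groups, and 1172 of all genes passed between Dor-7g and D4-act-7g. Without Dor-7g replicate 1, Pgam1 was at -0.92 and Pgk1 at 0.14 against D4-act-7g, and DOX-7g was above Dor-7g by 0.62 and 0.44. Pkm in Dor-7g kept to between -0.86 and -0.69 whichever array was left out, and did not pass in any of these fits.

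**Figure D3:**
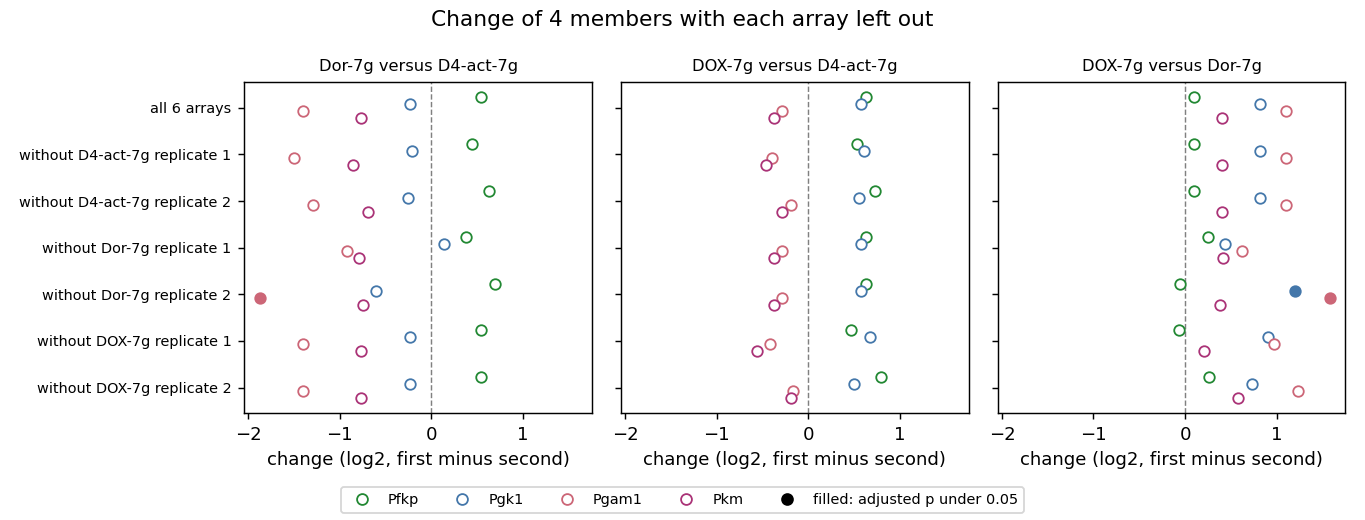
Change of Pfkp, Pgk1, Pgam1 and Pkm (horizontal axis, log2) with all 6 arrays and with each array left out (rows); filled points have an adjusted p under 0.05. Filled points appear in the row without Dor-7g replicate 2 alone, for Pgam1 between Dor-7g and D4-act-7g and for Pgam1 and Pgk1 between DOX-7g and Dor-7g.

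The other genes of glucose use were read from 7 further lists of 79 genes, of which 59 were tested, and none of those passed in any comparison (limma). With the members, 16 of 66 genes had an unadjusted p under 0.05 between Dor-7g and D4-act-7g, 8 between DOX-7g and D4-act-7g and 11 between DOX-7g and Dor-7g, or 24.2%, 12.1% and 16.7%, against the 14.3%, 11.0% and 11.6% of all genes given above.

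Of 19 other glycolysis enzymes 13 were tested, with median changes against D4-act-7g of 0.11 (Dor-7g) and 0.08 (DOX-7g) and of -0.01 between DOX-7g and Dor-7g. Tpi1, triose phosphate isomerase, stood at 7.31 and 7.24 on D4-act-7g arrays, 6.67 and 6.63 on Dor-7g arrays and 7.44 and 7.55 on DOX-7g arrays. The 3 groups did not overlap, with Dor-7g lowest and DOX-7g highest. DOX-7g was 0.84 ± 0.17 above Dor-7g (limma, adjusted p = 0.127), the smallest adjusted p of the 66 genes in that comparison.

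Gapdh, the dehydrogenase of the next step, stood at 11.79 and 11.78 on D4-act-7g arrays, 11.29 and 11.39 on Dor-7g arrays and 11.99 and 11.70 on DOX-7g arrays. Dor-7g lay below the other groups, by -0.45 ± 0.18 against D4-act-7g (limma, adjusted p = 0.357), and DOX-7g overlapped D4-act-7g. Its 2 other probesets of 1 symbol were at -0.80 and -0.43 in Dor-7g, and Gapdh has many pseudogene copies. Eno1, an enolase, had no probeset of its own symbol and is not analysed here, and Pfkm, the muscle-type phosphofructokinase, was too dim to be tested, at 4.25 to 5.11 on the 6 arrays.

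Ldhb, the other main lactate dehydrogenase subunit, had its lowest values in DOX-7g, where Tpi1 and Gapdh had theirs in Dor-7g. It stood at 7.19 and 7.20 on D4-act-7g arrays, 7.01 and 7.60 on Dor-7g arrays and 5.88 and 6.39 on DOX-7g arrays. Both DOX-7g arrays lay below the other 4, by -1.06 ± 0.28 against D4-act-7g (limma, adjusted p = 0.224) and -1.17 ± 0.28 against Dor-7g (limma, adjusted p = 0.200).

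Of 9 genes of glucose and lactate transport 7 were tested. The glucose transporter genes Slc2a1 and Slc2a3 were at 0.01 and -0.22 in Dor-7g and at -0.45 and -0.18 in DOX-7g, as differences from D4-act-7g, with adjusted p-values from 0.673 to 0.985 (limma, n = 2 arrays each). Their groups overlapped D4-act-7g throughout. A second, dimmer Slc2a1 probeset was at 0.10 in Dor-7g and at 0.15 in DOX-7g, the latter opposite in sign to the first.

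Of 7 genes for the enzymes that set fructose 2,6-bisphosphate and for fructose bisphosphatases, 5 were tested, with median differences from D4-act-7g of -0.18 (Dor-7g) and -0.32 (DOX-7g). Fbp2, a muscle-type fructose bisphosphatase that runs the phosphofructokinase step backwards and is named here after its values were seen, stood at 9.23 and 9.83 on D4-act-7g arrays, 7.85 and 7.19 on Dor-7g arrays and 7.76 and 7.64 on DOX-7g arrays. All 4 dormant arrays lay below D4-act-7g, by -2.01 ± 0.31 in Dor-7g (limma, adjusted p = 0.0585) and -1.83 ± 0.31 in DOX-7g (limma, adjusted p = 0.0814), just outside the threshold.

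Of 14 genes for the entry of pyruvate into mitochondria 11 were tested, with median differences of -0.09 (Dor-7g) and -0.13 (DOX-7g). Mpc1, a subunit of the mitochondrial pyruvate carrier and also named after its values were seen, stood at 9.60 and 9.25 on D4-act-7g arrays, 4.37 and 6.27 on Dor-7g arrays and 8.29 and 7.93 on DOX-7g arrays. By this brightest probeset both dormant groups lay below D4-act-7g, and Dor-7g lay lowest, at -4.11 ± 0.60 (limma, adjusted p = 0.0516). The second Mpc1 probeset stood at 6.52 and 6.78 on the D4-act-7g arrays and 6.76 and 6.46 on the Dor-7g arrays, a difference of -0.04. In DOX-7g it differed by -0.29 from D4-act-7g. The 2 probesets disagree, so the low Dor-7g values rest on 1 of them. Which of the 2 reads Mpc1 was not tested, and no fall of the gene is established. Pdk1, a kinase that switches off pyruvate dehydrogenase, was too dim to be tested, at 4.13 to 4.98.

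The 6 tested genes of the pentose phosphate pathway, which makes NADPH and ribose from glucose, had median differences from D4-act-7g of 0.03 (Dor-7g) and 0.05 (DOX-7g). For the 9 regulators these were 0.00 and -0.16. Hif1a, the oxygen-regulated subunit of HIF, stood at 4.56 and 4.80 on D4-act-7g arrays, 5.14 and 5.64 on Dor-7g arrays and 4.91 and 4.70 on DOX-7g arrays. Dor-7g lay above the other groups, by 0.71 ± 0.24 against D4-act-7g (limma, adjusted p = 0.260), and its other probeset of 1 symbol overlapped between these groups. Myc, a driver of growth and of glycolysis genes, was at -0.10 in Dor-7g and -0.16 in DOX-7g as differences from D4-act-7g, with overlapping groups.

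The 8 tested genes of the hypoxia response outside glycolysis had medians of 0.27 in Dor-7g and 0.05 in DOX-7g, against 0.06 and -0.05 over all genes. They did not move together: 5 were above and 3 below D4-act-7g in Dor-7g, and 6 and 2 in DOX-7g. Over all genes 56.7% and 42.0% were above. Ndrg1, a stress- and hypoxia-induced gene named after its values were seen, stood at 7.00 and 7.51 on D4-act-7g arrays, 9.30 and 8.53 on Dor-7g arrays and 9.08 and 8.98 on DOX-7g arrays. All 4 dormant arrays lay above D4-act-7g, by 1.66 ± 0.32 in Dor-7g (limma, adjusted p = 0.0981) and 1.77 ± 0.32 in DOX-7g (limma, adjusted p = 0.0924), and the second Ndrg1 probeset was higher by 0.95 and 2.27. Bnip3, also named after its values were seen, went the other way in Dor-7g, at -0.97 ± 0.28 (limma, adjusted p = 0.211). In DOX-7g Bnip3 was at 0.06.

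**Figure D4:**
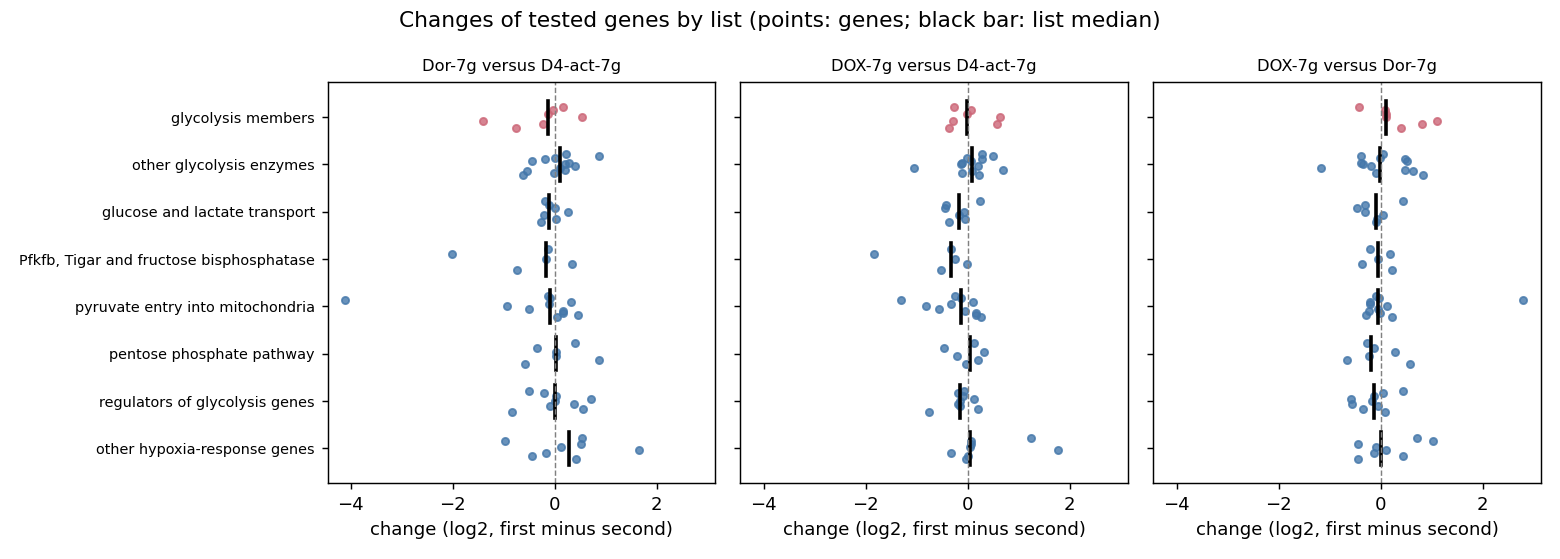
Change on the log2 scale (horizontal axis, first group minus second) of each tested gene in the 8 lists (rows) in the 3 comparisons, with black bars at list medians. List medians lie between -0.32 and 0.27, and the points furthest out are Mpc1 and Fbp2 to the left and Ndrg1 to the right in the comparisons with D4-act-7g.

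Over the 6 arrays, against the mean of the other tested members, Pearson's r was 0.65 for Pgam1, 0.55 for Pgk1, 0.49 for Pkm and 0.48 for Pfkl, but -0.13 for Hk2, -0.52 for Pfkp and -0.76 for Hk1. The 5 genes most like the mean pattern of the 7 tested members were Rps15a-ps5 (Pearson's r = 0.995), Dbil5 (0.994), Eif3m (0.991), Cdk2ap2 (0.990) and Gm5292 (0.989). All 5 had their lowest value on Dor-7g replicate 1 and their next lowest on Dor-7g replicate 2. This order follows from how they were picked. The mean pattern, centred per gene, was itself -0.27 and -0.11 on these arrays and 0.07 to 0.14 elsewhere. Eif3m, a subunit of translation initiation factor eIF3, stood at 11.41 and 11.53 on D4-act-7g arrays, 10.52 and 11.03 on Dor-7g arrays and 11.57 and 11.57 on DOX-7g arrays. The correlations describe 6 arrays that share their groups, and they were picked as the highest of 14020.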

How the data were processed

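Deposited are log2 expression values, 1 for each of 41345 probesets and 6 arrays. The submitters' processing notes name Partek 6.6 and RMA, without settings. RMA corrects background, normalizes and summarizes probes, which can compress folds of dim genes. The genome build behind the probesets was not stated.

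Sample titles gave the groups and replicate numbers. The platform's annotation gave gene symbols, updated by Entrez identifier in a RefSeq table of GRCm38.p6 (193 identifiers not matched). One symbol was given for 23521 probesets, several for 1814, and 16010 are unnamed here. Single-symbol probesets reaching the array's median on at least 2 of 6 arrays were kept, and the brightest stood for its gene (14020 genes). A single limma 3.58.1 model in R 4.3.3 held 3 group means without a block, moderated by plain eBayes (3 residual and 2.81 prior degrees of freedom). Benjamini-Hochberg adjustment ran over all genes of a comparison, with a threshold of 0.05. Changes are differences of group means with limma's SE and 95% interval. The fit was also run on simulated arrays with changes of known size and the same spread in every group. Here the median difference between replicates over all genes was 0.36 in Dor-7g, 0.17 in D4-act-7g and 0.20 in DOX-7g. That run therefore does not measure the accuracy of the fit on these arrays.

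Members and lists were chosen with earlier results of these data known. Named genes are the members, any gene of the 7 other pathway lists past the threshold (none), 10 listed genes fixed by name (Tpi1, Gapdh, Eno1, Pfkm, Ldhb, Slc2a1, Slc2a3, Pdk1, Hif1a and Myc), and the 5 genes most like the members' mean pattern. Outside this rule, Fbp2, Mpc1, Ndrg1 and Bnip3 were named after their values were seen, and markers of other cell types (Ly6g and S100a9 of the blood list passed) are named where they stand apart. Replicate numbers were not taken as pairs: deviations of replicate 1 from its group mean correlated across genes at -0.024, -0.011 and -0.137. The alternatives tried changed the normalization, the filter, the eBayes options, the weighting of arrays, the choice of probeset, the replicate block, the arrays fitted and the threshold, and left out each array.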

Additional observations from a re-analysis of the deposited data

Results flagged for a closer look

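Among the listed genes, 2 differed between the dormant groups by the test of DOX-7g against Dor-7g itself, both of them neutrophil markers of the blood list and none a glycolysis gene. Ly6g stood at 7.41 and 7.39 in DOX-7g against 3.75 and 4.25 in Dor-7g, a difference of 3.40 ± 0.25 (SE; limma, adjusted p = 0.00422). S100a9 stood at 9.55 and 9.55 in DOX-7g against 7.10 and 6.41 in Dor-7g, a difference of 2.79 ± 0.26 (limma, adjusted p = 0.00988). Their D4-act-7g values were 3.65 and 4.08 for Ly6g and 4.49 and 4.60 for S100a9.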

How the results depend on the processing

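No glycolysis member passed in any comparison under the 11 alternatives that keep all arrays of the groups compared. Leaving out each array in turn, the number of members called ranged from 0 to 1 between Dor-7g and D4-act-7g and from 0 to 2 between DOX-7g and Dor-7g, with all calls made without Dor-7g replicate 2, and stayed at 0 between DOX-7g and D4-act-7g. Of 357 recomputed changes of single members, 343 kept their sign and their side of the threshold, a count that does not measure stability. The filters, eBayes options, array weights, replicate block, threshold and fits of only the 2 groups compared left each member's change as it was. So did leaving out an array of the group not compared. Of the 357, 11 changed sign, all 11 with an array left out. Over those fits, against D4-act-7g, the change ranged in Dor-7g from -0.02 to 0.34 for Hk1, -0.18 to 0.13 for Hk2 and -0.61 to 0.14 for Pgk1, and in DOX-7g from -0.10 to 0.21 for Hk2 and -0.11 to 0.07 for Pfkl. Between DOX-7g and Dor-7g it ranged from -0.05 to 0.22 for Hk2 and -0.07 to 0.26 for Pfkp. With the replicate block 0 members passed in each comparison (smallest adjusted p in limma 0.213, 0.483 and 0.388), and the block changed no call of a member. Over all genes the block gave 82, 90 and 116 calls against 138, 134 and 163. Other counts over all genes ranged, with an array left out, from 11 to 1172 between Dor-7g and D4-act-7g, 43 to 296 between DOX-7g and D4-act-7g and 67 to 880 between DOX-7g and Dor-7g. With array weights they were 79, 461 and 104, with only the 2 groups compared 86, 296 and 86, with all 6 arrays at or above the median 68 and 81 in the comparisons of DOX-7g with D4-act-7g and Dor-7g, and at a threshold of 0.10 they were 319 and 244 in Dor-7g and DOX-7g against D4-act-7g. Centring each array on its median moved the median change of all genes by -0.13 between Dor-7g and D4-act-7g and by 0.13 between DOX-7g and Dor-7g. The members' medians moved to -0.26 and 0.24. A second quantile normalization also moved the members' median between DOX-7g and Dor-7g, from 0.11 to 0.24, and that of all genes by 0.06. The cause of these differences was not tested.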
